A study of Mus musculus with 10 samples.

Results

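The genes encoding tubulins, kinesins, kinesin light chains and the subunits of cytoplasmic dynein were examined in mouse dorsal root ganglia (DRG), the ganglia that hold the cell bodies of sensory neurons, 24 h after the sciatic nerve was cut. Members were chosen by symbol: protein-coding genes named Tuba, Tubb or Tubg followed by a digit, Kif followed by a number and at most 1 letter from a to c, Klc1 to Klc4, and Dync1 or Dync2. The rule found 69 genes of 54309 in the annotation. They comprised 7 alpha, 8 beta and 2 gamma tubulins, 13 kinesins of axonal and vesicle transport, 5 kinesins that regulate microtubule growth, 12 mitotic kinesins, 6 kinesins linked to cilia, 3 other kinesins, 4 kinesin light chains, 5 dynein-1 subunits and 4 dynein-2 subunits. The transport and mitotic kinesins are described separately. All groups were C57BL/6 mice of 6 to 8 weeks, and the left lumbar DRG of L4 and L5 were taken from the operated side 24 h after surgery. Axotomy was a complete cut of the sciatic nerve at mid-thigh, and in sham mice the nerve was exposed and not cut. Each sex had 2 sham and 3 axotomy libraries, and every library pooled RNA of 2 mice, so p-values measure the spread between these pools and not between single mice. A ganglion of this kind also holds neurons whose axons the cut did not reach, glia, connective tissue and blood cells.

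Microtubules are polymers of alpha and beta tubulin that form the tracks of the axon, and gamma tubulin starts new ones. Most kinesins walk towards the plus ends, which in axons point away from the cell body, and so carry vesicles, mitochondria and channels outwards, whereas dynein-1 carries endosomes and injury signals back to the cell body. Other kinesins trim microtubule ends or act in the mitotic spindle, and dynein-2 returns cargo within cilia. Adult sensory neurons do not divide, so a mitotic kinesin in a ganglion can come from glia, immune cells or other dividing cells, or from a neuron that uses the protein outside mitosis.

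Salmon assigned 55258476 to 90111671 estimated counts to each library, and members held 2.16% to 2.78% of them. Levels are given as TMM-scaled TPM, a transcript abundance corrected for transcript length and then for library composition, which can be compared between genes. The injury transcription factor Atf3 measured 66.1 to 108 in the 4 sham libraries and 294 to 582 in the 6 axotomy libraries. All 12 sensory neuron markers were detected. No marker of the other cell types listed was at 0 in all libraries either, so detection alone cannot check the tissue label. Summed, the sensory neuron markers measured 8047 to 12130. Markers of glia and interneurons of the central nervous system measured 6.00 to 8.59. Of the male axotomy libraries, male axotomy 2 was nearest to sham for the summed transport kinesins, and male axotomy 1 and 3 held 4.61% and 5.11% mitochondrial counts against 3.61% in male axotomy 2. Calls of members that changed without that library are given beside the member or with the counts. In bulk tissue, fewer cells of a type and less RNA per cell cannot be told apart.

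Members spanned a wide range of levels. Averaged over all libraries, 24 of the 69 were at 100 TMM-scaled TPM or more, 29 lay between 1 and 100, and 16 were under 1. Tuba1a and Tubb3 were the most abundant alpha and beta tubulins. Among the transport kinesins Kif1b, Kif5a and Kif1a led, Klc1 led the light chains and Dync1i2 the dynein-1 subunits. The low filter kept 64 members. Tuba3a, Tuba3b, Kif2b, Kif12 and Kif28 did not pass it, and each of them was at or below 0.120 in every library.

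After axotomy a small set of members rose in both sexes, and in males a larger set fell. Genes with an adjusted p-value (padj, edgeR quasi-likelihood test with Benjamini-Hochberg adjustment over all genes) under 0.1 are called differentially expressed genes (DEGs). In females, 9 of 64 members were upregulated, where 10.4% of all 20836 genes tested were, and 9 were downregulated, where 9.74% were. In males, 9 members were upregulated against a background of 21.8%, and 26 were downregulated against a background of 20.1%. These shares of all genes also apply to the counts of roles and lists called with edgeR below. The same 6 members rose in both sexes (Tubb6, Tuba1c, Tubb2b, Kif22, Kif19b and Kif4) and 7 fell in both (Kif26a, Kif26b, Kif21b, Tuba8, Tubg2, Dync1i1 and Kif11), where 7.84% of all genes tested rose in both and 7.61% fell in both. The sexes were tested in 1 fit and against different sham libraries. Another 18 fell in males and were not DEGs in females, and 25 were DEGs in neither sex. Kif1c, Kif19a and Kif18b rose in males and were not DEGs in females, Tubb2a and Kif3b rose and Tubb1 and Kif23 fell in females and were not DEGs in males, and Kif2c rose in females and fell in males. The median log2FC of the members was -0.088 in females and -0.22 in males, against 4.36e-04 and 0.027 over all genes. The count of downregulated members in females ranged from 1 without female sham 2 (1.31% of all genes tested in that fit) to 20 without male axotomy 2 (13.3%). The latter library enters that test only through the shared estimate of the spread. In males the count ranged from 14 without male sham 2 (11.5%) to 33 without male axotomy 2 (22.8%), when Tuba1b, Tubb3, Tubb5, Kif3c, Kif13a, Kif21a, Kif24, Kif27 and Dync1li2 also passed and Kif11 and Klc3 did not. Among fits that leave out an axotomy library, the count of upregulated members was down to 5 in females. That was without female axotomy 1 or 2 (5.52% and 6.28% of all genes tested). In males it was down to 7 among such fits, without male axotomy 1 (17%). Leaving out a sham library leaves 1 library in that group. With libraries scaled to the deposited TPM total in place of TMM, 6 members rose and 12 fell in females (5.29% and 13% of all genes), and 6 rose and 34 fell in males (11.7% and 31.3%).

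**Figure D1:**
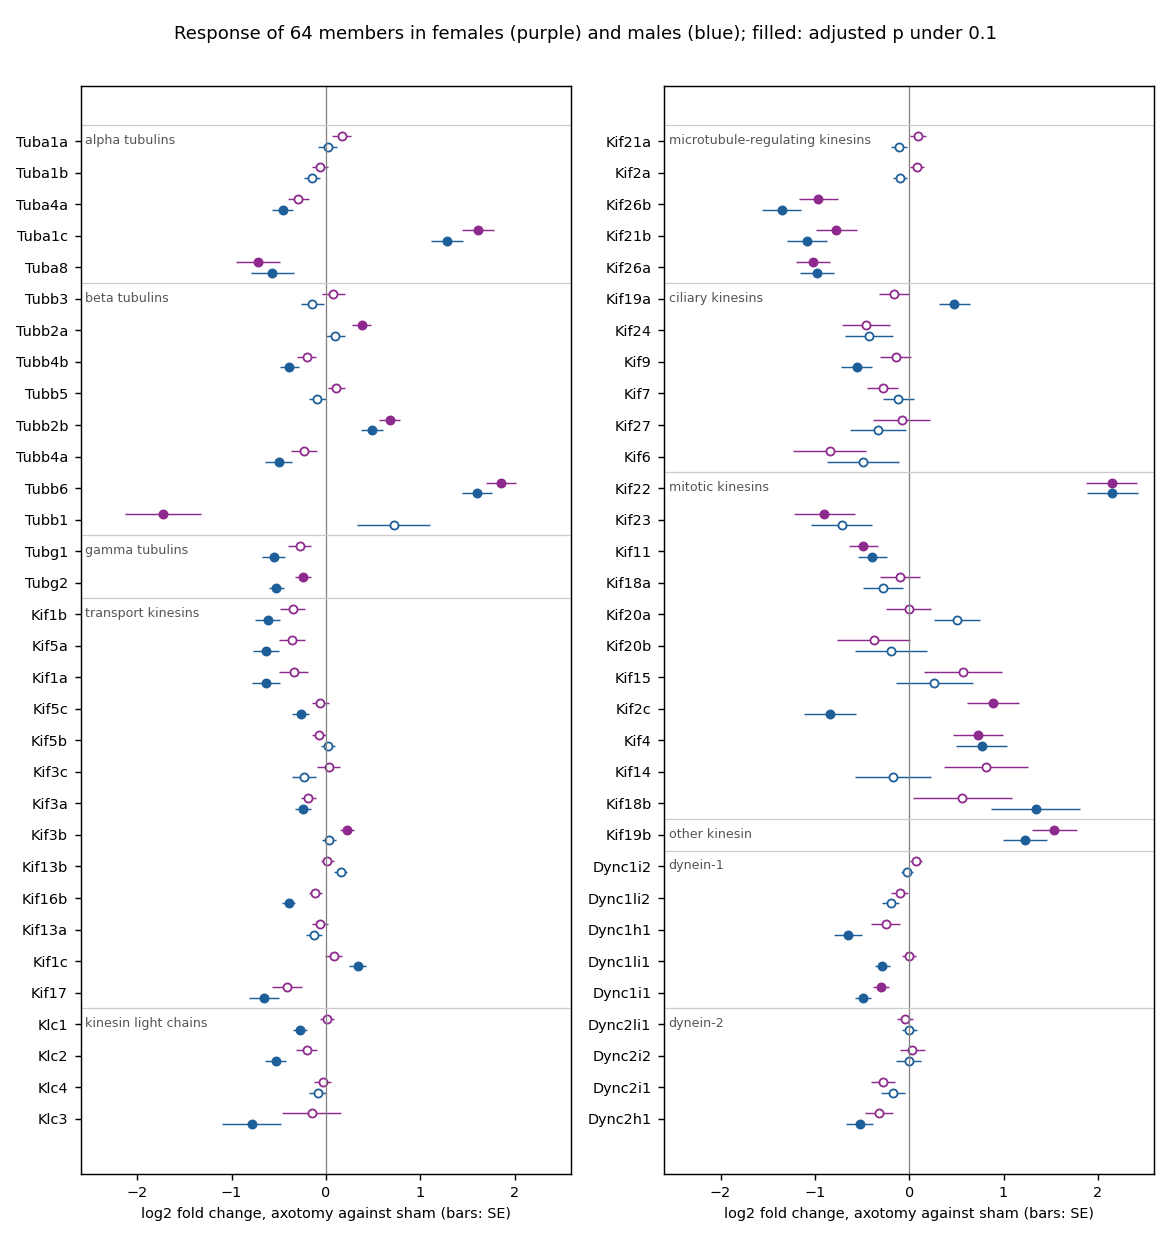
The log2 fold change of each of the 64 tested members after axotomy against sham is plotted by role for females (purple) and males (blue), with bars for the SE and filled points for padj under 0.1. Kif22, Tubb6, Tuba1c and Kif19b stand at the right in both sexes, and Kif26a, Kif26b and Kif21b at the left.

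Whether the responses of females and males differed in size was tested by the sex by injury interaction, because a DEG in a single sex does not show it. The interaction, the male response minus the female response, passed padj under 0.1 for 0 of 64 members with edgeR, while 0.0192% of all genes passed. At an unadjusted p under 0.05, 7 members passed, and the share of all genes at that threshold was not computed. With DESeq2 2 had padj under 0.1 (Kif2c and Klc1), as did 2.57% of all genes, and with no filter on low counts 2 did (Tubb1 and Kif2c), as did 0.533% of all genes. Without male axotomy 2 the interaction passed for 15 members, and for 10.5% of all genes. Of the 15 members, 13 had a lower log2FC in males than in females, among them Dync1h1, Kif5a, Kif1a, Kif1b, Tubb4a and Klc1. Tubb1 and Kif1c had a higher log2FC in males.

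Among alpha tubulins, the minor isotype Tuba1c rose and the major isotypes did not pass the test. In females Tuba1c measured 20.0 and 20.6 in the sham and 72.6, 57.9 and 55.3 in the axotomy libraries. In males it measured 21.9 and 23.8 in the sham and 67.0, 55.9 and 44.1 in the axotomy libraries. The axotomy libraries of both sexes lay above all sham libraries without overlap. Members of largest change, here and below, were chosen for lack of overlap in a sex where they were called. For them it is therefore not a further result. The log2FC was 1.61 ± 0.17 (SE, padj = 7.50e-04) in females, against 1.29 ± 0.17 (SE, padj = 8.74e-04) in males. Tuba1a, the main alpha tubulin of neurons, measured 4035 and 4059.7 in the sham and 4785, 4527 and 4341 in the axotomy libraries of females and 4131 and 4320.1 in the sham and 4482, 4654 and 3727 in the axotomy libraries of males. The female axotomy libraries lay above the female sham libraries, and those of males overlapped. Its log2FC was 0.17 ± 0.10 (SE, padj = 0.303) in females, against 0.021 ± 0.10 (SE, padj = 0.893) in males. The widely expressed Tuba1b was not a DEG, with a log2FC of -0.059 (padj = 0.692) in females and -0.14 (padj = 0.219) in males. Tuba1a gained a call in females without male axotomy 3 or with only the compared libraries or the replicate number as a block (padj 0.0815 to 0.0993).

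Tuba4a, an alpha tubulin made without the usual C-terminal tyrosine, fell in males, and its log2FC was -0.29 (padj = 0.108) in females and -0.46 (padj = 0.0100) in males. Tuba8, a divergent alpha tubulin, was rare at 1.66 and 1.91 in the sham and 1.01, 1.39 and 0.854 in the axotomy libraries of females and 1.52 and 2.04 in the sham and 1.13, 1.41 and 1.05 in the axotomy libraries of males. Axotomy libraries lay below sham libraries in each sex. Tuba8 fell by 0.72 ± 0.23 (SE, padj = 0.0688) in females and by 0.57 ± 0.23 (SE, padj = 0.0831) in males on the log2 scale. Tuba4a lost its call in males without male sham 2 (padj 0.121). Tuba4a gained a call in females without male axotomy 2 or 3 or with DESeq2, no filter on low counts or only the compared libraries (padj 0.0175 to 0.0790). It also gained that call with protein-coding transcripts alone or the replicate number as a block (padj 0.0656 and 0.0791). Tuba8 lost its call in females without either female sham library or female axotomy 1 or 3 (padj 0.150 to 0.344). Tuba8 lost its call in males without either female sham library, either male sham library or male axotomy 1 or 3 or with no filter on low counts or only the compared libraries (padj 0.101 to 0.447). As shares of all alpha tubulin, Tuba1a made up 61.2% of female sham and 65.0% of female axotomy, and 61.4% and 64.3% in males, while Tuba1c made up at most 0.989% of the total.

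The promoters of Tuba1c and Kif22, both upregulated in each sex, and of Tuba1a, a neighbour of Tuba1c on the same chromosome that was not a DEG, are shown so that the members with a called rise can be set beside one without. Each runs from 250 bases before to 50 bases after the start of the gene (RefSeq, GRCm38.p6, printed on the strand of the gene), and capitals mark the CCAAT box, CCAAT or its reverse complement ATTGG.
Tuba1c (chr15:99029641-99029940, plus strand): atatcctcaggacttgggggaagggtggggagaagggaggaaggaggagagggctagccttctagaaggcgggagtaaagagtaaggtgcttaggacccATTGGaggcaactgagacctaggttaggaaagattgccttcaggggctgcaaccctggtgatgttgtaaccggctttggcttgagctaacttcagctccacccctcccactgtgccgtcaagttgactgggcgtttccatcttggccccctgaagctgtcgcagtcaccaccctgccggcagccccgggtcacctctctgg
Kif22 (chr7:127042371-127042670, minus strand): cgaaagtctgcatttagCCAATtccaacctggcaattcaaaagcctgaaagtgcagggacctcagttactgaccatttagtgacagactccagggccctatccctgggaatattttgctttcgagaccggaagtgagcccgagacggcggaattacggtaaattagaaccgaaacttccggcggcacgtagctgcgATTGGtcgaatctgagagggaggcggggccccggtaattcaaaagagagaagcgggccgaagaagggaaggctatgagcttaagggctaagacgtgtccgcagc
Tuba1a (chr15:98953452-98953751, minus strand): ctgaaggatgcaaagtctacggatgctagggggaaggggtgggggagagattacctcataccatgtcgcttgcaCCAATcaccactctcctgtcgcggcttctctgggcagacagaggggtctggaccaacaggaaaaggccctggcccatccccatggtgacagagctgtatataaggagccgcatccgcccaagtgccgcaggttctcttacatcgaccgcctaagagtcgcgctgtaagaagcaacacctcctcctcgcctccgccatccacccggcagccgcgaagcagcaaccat

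A CCAAT box stood 151 bases before the start of Tuba1c, 176 bases before that of Tuba1a, and at 2 positions before Kif22. Of the 53 members matched by symbol, 25 had a CCAAT box on either strand, which 37.4% of all 32851 promoters of the table had. The AP-1 site TGANTCA, read by Fos and Jun factors, was in the promoters of 0 members and in 7.81% of all promoters. The cyclic AMP response element TGACGTCA was in those of 5 members and in 1.79% of all, and the TATA box TATAAA in those of 6 members and in 13.6% of all. Both strands were searched. None of the 3 members that rose in both sexes and have a promoter in the table held an AP-1 site, a cyclic AMP response element or a TATA box as spelled here.

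Tubb6, a beta tubulin that is scarce in resting neurons, rose most among the tubulins. It measured 12.9 and 13.9 in the sham and 55.8, 48.8 and 41.1 in the axotomy libraries of females. In males it measured 11.9 and 14.0 in the sham and 43.2, 42.3 and 32.2 in the axotomy libraries. No axotomy library overlapped a sham library. Its log2FC was 1.86 ± 0.16 (SE, padj = 3.64e-04) in females, against 1.60 ± 0.16 (SE, padj = 3.46e-04) in males. Tubb2b, a beta tubulin of developing and growing neurons, rose from a higher level, with 381 and 365 in the sham and 669, 577 and 542 in the axotomy libraries of females and 362 and 367 in the sham and 557, 531 and 444 in the axotomy libraries of males. Both sexes were above sham without overlap, and the log2FC was 0.68 ± 0.11 (SE, padj = 0.00517) in females, against 0.49 ± 0.11 (SE, padj = 0.00846) in males. Its close relative Tubb2a was a DEG in females, and its log2FC was 0.38 (padj = 0.0363) in females and 0.10 (padj = 0.477) in males. Tubb2a lost its call in females without either female sham library or female axotomy 1 or 2 or with scaling to the deposited TPM total (padj up to 0.238). Tubb2a gained a call in males without male axotomy 3 (padj 0.0702).

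The other beta tubulins fell or did not pass. Tubb3, the neuronal isotype, measured 1999 and 2203 in the sham and 2287, 2255 and 2119 in the axotomy libraries of females and 2250.2 and 2394 in the sham and 2105, 2439 and 1755 in the axotomy libraries of males. Its axotomy and sham libraries overlapped in both sexes, with a log2FC of 0.079 (padj = 0.714) in females and -0.15 (padj = 0.388) in males. Tubb3 gained a call in males without male axotomy 2 (padj 0.0450). Tubb5 gave 0.11 (padj = 0.453) in females and -0.093 (padj = 0.463) in males. Tubb4a, abundant in neurons and myelinating cells, and Tubb4b, also found in cilia, fell in males (log2FC -0.50 ± 0.14, SE, padj = 0.0199 and -0.39 ± 0.10, SE, padj = 0.0148) and gave -0.23 (padj = 0.310) and -0.20 (padj = 0.216) in females. Tubb4a lost its call in males without male sham 2 (padj 0.122). Tubb4a gained a call in females without male axotomy 2 or with only the compared libraries (padj 0.0361 to 0.0365). Tubb4b lost its call in males without male sham 2 (padj 0.109). Tubb4b gained a call in females without male axotomy 2 or with only the compared libraries (padj 0.0430 to 0.0488). As shares of all beta tubulin, Tubb2b moved from 7.00% to 10.2% in females and from 6.37% to 9.61% in males, and Tubb4b from 16.98% to 13.5% and from 16.9% to 13.8%. Summed over the family, beta tubulin ranged from 5174 to 5843 in sham and from 4587 to 6068 after axotomy, and these ranges overlapped, although the 3 female axotomy libraries lay above the 2 female sham libraries.

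Tubulin transcripts share sequence, so reads can be split between them by estimation. Of all windows of 100 bases, 69.5% in Tuba1b, 65.1% in Tuba1a and 53.4% in Tuba1c also occurred in transcripts of another gene, as did 36.9% in Tubb2a, 27.7% in Tubb2b and 0% in Tubb6. In Tubb4b 29.2% were shared with genes that include Tubb4b pseudogenes. Values of Tuba1a, Tuba1b, Tuba1c, Tubb2a, Tubb2b and Tubb4b are therefore uncertain as single genes. Summed as 1 feature, Tubb2a and Tubb2b gave a log2FC of 0.48 ± 0.10 (SE, padj = 0.0162) in females, against 0.23 ± 0.10 (SE, padj = 0.119) in males. Tuba1a, Tuba1b and Tuba1c together gave 0.10 (padj = 0.525) and -0.026 (padj = 0.860), a sum of which Tuba1c is a small part.

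**Figure D2:**
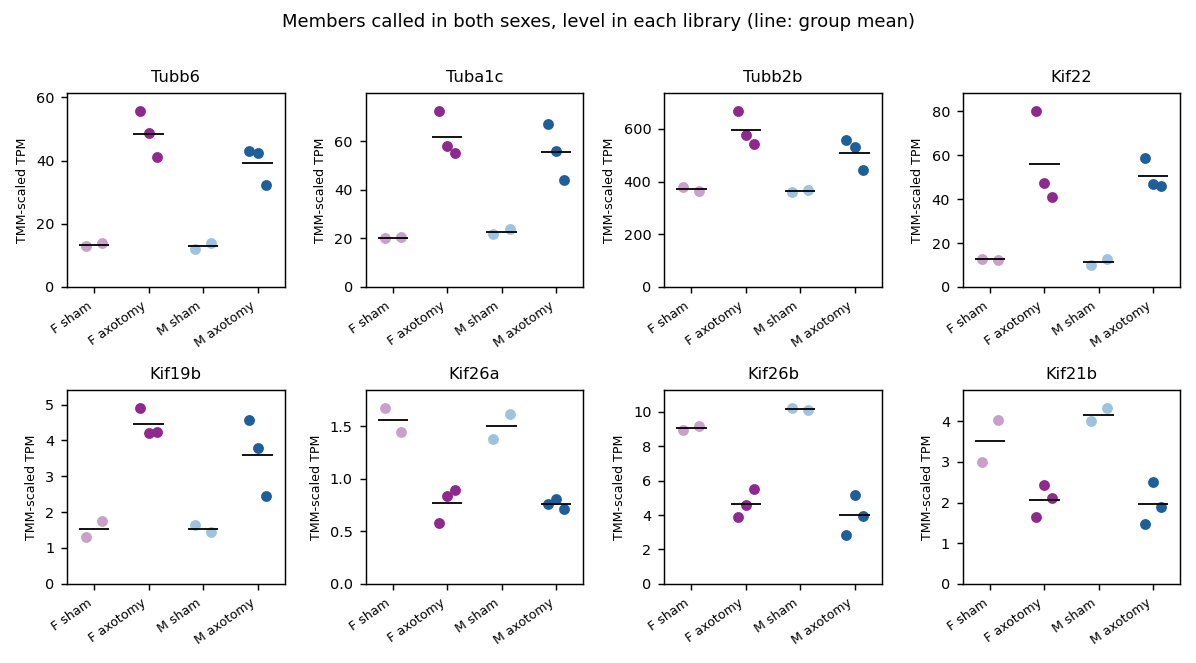
TMM-scaled TPM in each library is plotted for 8 members that were DEGs in both sexes, in females (F) and males (M), with a line at each group mean. Every axotomy library lies above the sham libraries for Tubb6, Tuba1c, Tubb2b, Kif22 and Kif19b, and below them for Kif26a, Kif26b and Kif21b. Lack of overlap in a sex where the member was called was a condition of choosing these members.

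Both gamma tubulins, which nucleate microtubules, were lower after axotomy. Tubg1 measured 30.8 and 34.4 in the sham and 26.1, 27.9 and 26.5 in the axotomy libraries of females and 34.8 and 37.1 in the sham and 23.6, 28.8 and 20.8 in the axotomy libraries of males, without overlap in either sex. Its log2FC was -0.28 ± 0.12 (SE, padj = 0.145) in females, against -0.56 ± 0.12 (SE, padj = 0.00559) in males, so it was a DEG in males. Tubg2 fell in both sexes, with -0.24 (padj = 0.0796) in females and -0.53 (padj = 0.00158) in males. Tubg1 gained a call in females without male axotomy 2 or 3 or with only the compared libraries or protein-coding transcripts alone (padj 0.0357 to 0.0900). Tubg2 lost its call in females without either female sham library, either male sham library or any female axotomy library or with no filter on low counts (padj 0.118 to 0.430). In the gamma-tubulin ring complex list, 2 of 11 genes fell and 0 rose in females, and 4 fell and 3 rose in males. Tubgcp4, a subunit of the ring, gave -0.34 (padj = 0.0187) in females and -0.43 (padj = 0.00271) in males.

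Of the 13 transport kinesins, 1 was upregulated and 0 were downregulated in females with edgeR, and 1 was upregulated and 7 downregulated in males. Of all genes tested, 10.4% rose and 9.74% fell in females, and 21.8% rose and 20.1% fell in males. At an unadjusted p under 0.05, 6 transport kinesins passed in females and 8 in males, and the share of all genes was not computed. DESeq2 called Kif1b, Kif5a and Kif17 as downregulated in females, and so did a fit of the female libraries by themselves, which also called Kif1a. Kif1b, which carries mitochondria and synaptic vesicle precursors, was the most abundant. It measured 379 and 415 in the sham and 292, 309 and 331 in the axotomy libraries of females. In males it measured 408 and 422 in the sham and 247, 332 and 233 in the axotomy libraries. Axotomy libraries lay below sham in both sexes, and male axotomy 2 was the highest of the male axotomy libraries. The log2FC was -0.35 ± 0.13 (SE, padj = 0.110) in females, against -0.62 ± 0.13 (SE, padj = 0.00626) in males. Kif1a, the carrier of synaptic vesicle precursors and dense-core vesicles, measured 325 and 363 in the sham and 253, 268 and 294 in the axotomy libraries of females and 374 and 376 in the sham and 231, 301 and 193 in the axotomy libraries of males. It had the same order of libraries in males, and a log2FC of -0.34 ± 0.15 (SE, padj = 0.164) in females, against -0.63 ± 0.15 (SE, padj = 0.00944) in males. Kif1b gained a call in females without male axotomy 2 or 3 or with DESeq2, no filter on low counts, only the compared libraries or protein-coding transcripts alone (padj 0.00937 to 0.0810). Kif1a gained a call in females without male axotomy 2 or 3 or with only the compared libraries (padj 0.0263 to 0.0651).

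Kif5a, the kinesin-1 heavy chain restricted to neurons, gave -0.36 (padj = 0.117) in females and -0.63 (padj = 0.00634) in males. The neuronal Kif5c gave -0.061 (padj = 0.709) in females and -0.27 (padj = 0.0432) in males, and the widely expressed Kif5b gave -0.068 (padj = 0.589) in females and 0.025 (padj = 0.824) in males. Kif17, a kinesin-2 motor, was rare at 1.71 and 1.52 in the sham and 1.20, 1.26 and 1.18 in the axotomy libraries of females and 1.86 and 1.64 in the sham and 0.958, 1.16 and 1.22 in the axotomy libraries of males. Axotomy libraries lay below sham in both sexes, and the log2FC was -0.41 ± 0.16 (SE, padj = 0.107) in females, against -0.66 ± 0.16 (SE, padj = 0.00921) in males. Of the heterotrimeric kinesin-2 subunits, Kif3a fell in males (-0.24, padj = 0.0400), Kif3b rose in females (0.23, padj = 0.0740) and Kif3c gave 0.028 (padj = 0.909) in females and -0.23 (padj = 0.170) in males. Kif1c, a widely expressed relative of Kif1a, was the transport kinesin that rose in males (0.34 ± 0.09, SE, padj = 0.0154) and gave 0.083 (padj = 0.584) in females. Kif13a and Kif13b, carriers of endosomal and membrane cargo, were DEGs in neither sex, Kif13a with -0.064 (padj = 0.664) in females and -0.13 (padj = 0.261) in males and Kif13b with 0.013 (padj = 0.928) in females and 0.16 (padj = 0.114) in males. Kif5a gained a call in females without male axotomy 2 or 3 or with DESeq2, no filter on low counts, only the compared libraries or protein-coding transcripts alone (padj 0.00955 to 0.0962). Kif5c lost its call in males without either male sham library or with only the compared libraries (padj 0.132 to 0.176). Kif17 gained a call in females without any male axotomy library or with DESeq2, no length correction, only the compared libraries or scaling to the deposited TPM total (padj 0.0683 to 0.0958). Kif3a lost its call in males without either male sham library or male axotomy 1 or with no length correction (padj 0.112 to 0.205). Kif3a gained a call in females with protein-coding transcripts alone (padj 0.0882). Kif3b lost its call in females without either female sham library, either male sham library or any female axotomy library or with no filter on low counts or scaling to the deposited TPM total (padj 0.105 to 0.545). Kif1c lost its call in males without male sham 2 or with scaling to the deposited TPM total (padj 0.157 to 0.213).

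Summed, the 13 transport kinesins measured 1829.9 and 1965 in the sham and 1557, 1622 and 1716 in the axotomy libraries of females and 1968 and 1974 in the sham and 1433, 1696 and 1312 in the axotomy libraries of males. All axotomy libraries were below all sham libraries. Sensory neuron markers moved with them: 6 of 12 fell in females and 10 of 12 in males, none at 0, with a summed level of 10470 to 11420 in female sham, 9677 to 9983 in female axotomy, 11390 to 12130 in male sham and 8047 to 9571 in male axotomy. In males 8 of 8 macrophage markers rose (summed 45.2 to 48.0 in sham and 97.2 to 167 after axotomy), as did 7 of 7 fibroblast and meningeal markers (503 to 516 and 743 to 1599) and 7 of 7 markers of myelinating Schwann cells (4992 to 5568 and 7053 to 9719). In females 1 of 8 macrophage markers rose, 0 of 7 fibroblast markers rose and 2 fell, and 0 of 7 Schwann cell markers rose. The interaction passed padj under 0.1 for 0 markers of these lists. Their sums in female sham, 56.6 to 71.5, 663 to 725 and 5620 to 7788, lay above those in male sham. Of 6 satellite glia markers, 1 rose and 2 fell in females, and 3 rose and 0 fell in males. The interaction passed for 1 of them, where 0.0192% of all genes passed. After axotomy 2 of them were higher in males, where 1.16% of all genes were. Erythrocyte (5 of 5) and mast cell (4 of 4) markers also rose in males, while 0 of 5 neutrophil markers rose and 3 of 5 endothelial markers fell. No marker of these lists was at 0 in all libraries. The part of these cells in the lower motor levels was not tested.

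**Figure D3:**
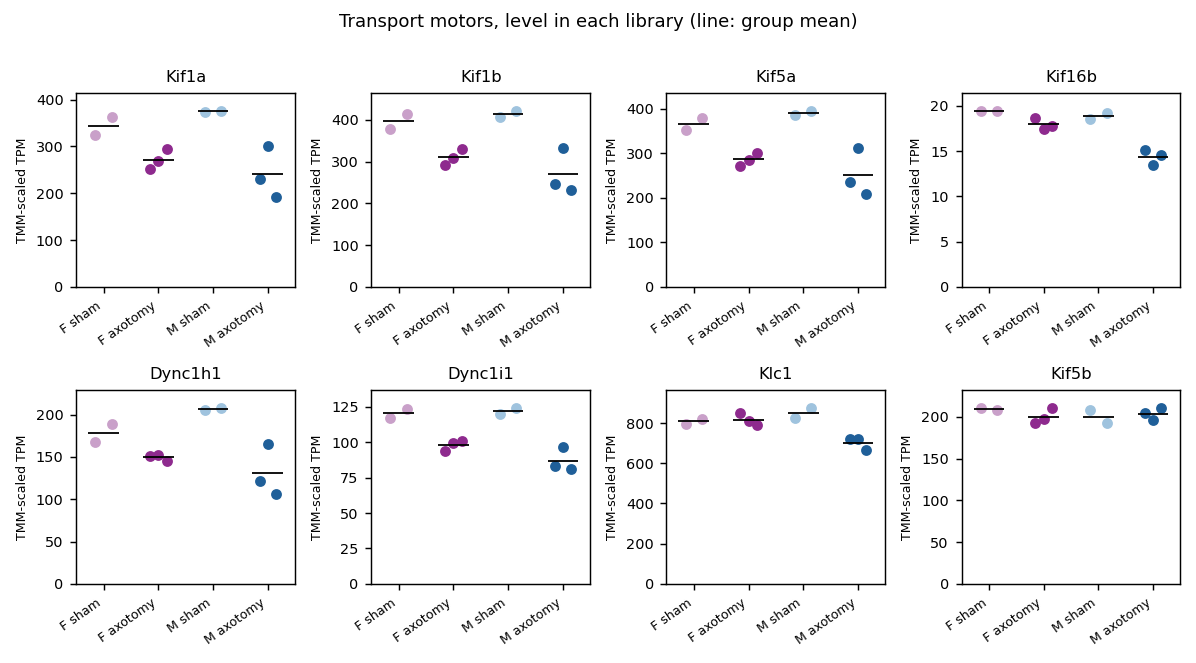
TMM-scaled TPM in each library is plotted for 8 transport motor genes in females (F) and males (M), with a line at each group mean. Kif1a, Kif1b, Kif5a and Dync1h1 are lowest in male axotomy 1 and 3, male axotomy 2 is nearer to sham, and Kif5b stays between 192 and 211 in all libraries.

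**Figure D4:**
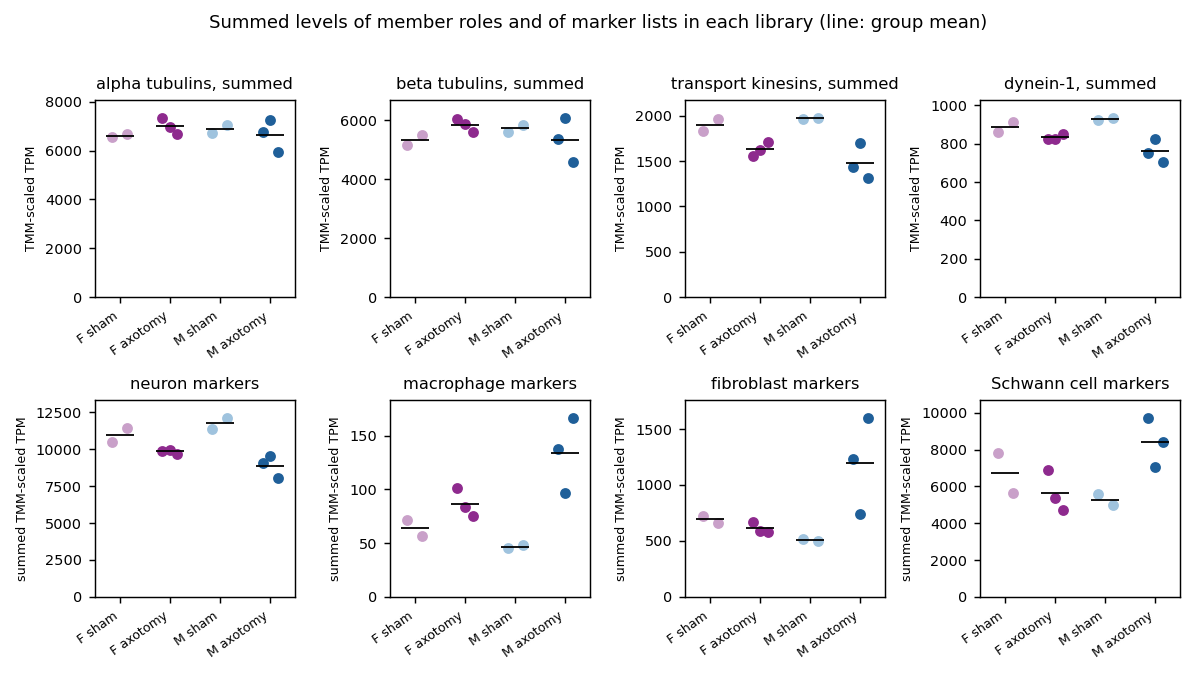
Summed TMM-scaled TPM of alpha tubulins, beta tubulins, transport kinesins and dynein-1 subunits (upper row) and of marker lists for 4 cell types (lower row) is plotted for each library, with a line at each group mean. Transport kinesins reach 1696 in male axotomy 2 against 1433 and 1312 in male axotomy 1 and 3, and macrophage markers 97.2 against 138 and 167.

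Kinesin light chains link kinesin-1 to cargo, and 3 of 4 fell in males, where 20.1% of all genes fell. In females 0 were DEGs with edgeR, and 0 passed an unadjusted p under 0.05. Klc1, the main light chain of neurons, measured 795 and 820.2 in the sham and 849, 809 and 788 in the axotomy libraries of females and 823 and 877 in the sham and 719.5, 721 and 666 in the axotomy libraries of males. Male axotomy libraries lay below male sham without overlap, whereas those of females overlapped. The log2FC was 0.014 ± 0.077 (SE, padj = 0.928) in females, against -0.28 ± 0.076 (SE, padj = 0.0187) in males. Klc2 gave -0.20 (padj = 0.263) in females and -0.53 (padj = 0.00529) in males and Klc3 gave -0.15 (padj = 0.793) in females and -0.79 (padj = 0.0715) in males, while Klc4 gave -0.034 (padj = 0.847) in females and -0.086 (padj = 0.507) in males. Klc1 lost its call in males without male sham 2 (padj 0.157). Klc2 gained a call in females without male axotomy 2 (padj 0.0962). Klc3 lost its call in males without either male sham library or male axotomy 1 or 2 (padj 0.114 to 0.252). Of 20 genes listed as kinesin adaptors, 3 fell and 1 rose in females, and 11 fell and 1 rose in males. The largest falls were those of Trak1, which ties mitochondria to kinesin-1 (-0.33, padj = 0.0838 in females and -0.64, padj = 0.00286 in males), and Clstn1, a cargo receptor for Klc1 (-0.42, padj = 0.0170 and -0.58, padj = 0.00175). The gene that rose in females was Arl8a (0.30, padj = 0.0497), and that which rose in males was Rhot1 (0.19, padj = 0.0516), a mitochondrial GTPase.

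Of 5 dynein-1 subunits, 1 fell in females and 3 fell in males, where 9.74% and 20.1% of all genes fell. The heavy chain Dync1h1, the motor itself, measured 167 and 189 in the sham and 151, 152 and 145 in the axotomy libraries of females and 205 and 208 in the sham and 122, 166 and 107 in the axotomy libraries of males. It lay below sham in both sexes without overlap, and its log2FC was -0.25 ± 0.15 (SE, padj = 0.294) in females, against -0.65 ± 0.15 (SE, padj = 0.00766) in males. The neuronal intermediate chain Dync1i1 fell in both sexes (-0.30 ± 0.085, SE, padj = 0.0419 and -0.49 ± 0.084, SE, padj = 0.00225). Dync1i2, the widely expressed and most abundant intermediate chain, measured 252 and 244 in the sham and 265, 255 and 263 in the axotomy libraries of females and 249 and 245 in the sham and 245, 244 and 241 in the axotomy libraries of males. Its values spanned a narrow range, and its log2FC was 0.073 ± 0.064 (SE, padj = 0.487) in females, against -0.022 ± 0.063 (SE, padj = 0.817) in males. Of the light intermediate chains, Dync1li1 fell in males (-0.28, padj = 0.0174) and gave -0.0019 (padj = 0.991) in females, and Dync1li2 gave -0.10 (padj = 0.497) in females and -0.20 (padj = 0.121) in males. Dync1h1 gained a call in females without male axotomy 2 or with only the compared libraries (padj 0.0381 to 0.0443). Dync1i1 lost its call in females without either female sham library or female axotomy 1 or 2 (padj 0.104 to 0.276). Dync1li1 lost its call in males without male sham 2 (padj 0.113).

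Genes for the partners of dynein-1 moved in both directions. Dctn1, the large dynactin subunit that binds microtubules, was the single dynactin gene of 12 that fell, and it fell in both sexes (-0.35, padj = 0.0448 in females and -0.72, padj = 0.00111 in males), while 0 of 12 rose in females and 4 rose in males. Of 5 dynein light chains, 1 rose and 0 fell in females, and 3 rose and 1 fell in males. Dynll1, a light chain that also binds many other proteins, gave 0.51 (padj = 0.0626) in females and 0.66 (padj = 0.0114) in males. Of 15 dynein regulators and adaptors, 2 rose and 1 fell in females, and 4 rose and 2 fell in males. Among them Hook2 gave 0.60 (padj = 0.0267) in females and 0.80 (padj = 0.00344) in males, and Ndel1, a partner of Lis1, gave 0.54 (padj = 0.00748) in females and 0.40 (padj = 0.0116) in males.

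Of 4 dynein-2 subunits, 1 fell in males, where 20.1% of all genes fell. In females 0 were DEGs with edgeR, and 0 passed an unadjusted p under 0.05. The dynein-2 light intermediate chain Dync2li1 measured 22.2 and 20.1 in the sham and 21.0, 20.1 and 20.5 in the axotomy libraries of females and 20.9 and 21.3 in the sham and 20.7, 20.6 and 21.9 in the axotomy libraries of males. All 10 values lay within a narrow range, with a log2FC of -0.046 (padj = 0.757) in females and 0.00052 (padj = 0.997) in males. The intermediate chains Dync2i1 and Dync2i2 were DEGs in neither sex, Dync2i1 with -0.28 (padj = 0.175) in females and -0.17 (padj = 0.342) in males and Dync2i2 with 0.032 (padj = 0.901) in females and -0.0063 (padj = 0.976) in males. The heavy chain Dync2h1 fell in males (-0.53 ± 0.14, SE, padj = 0.0181) and gave -0.32 (padj = 0.172) in females. Kif19a, which limits the length of cilia, was the most abundant of its role and measured 24.2 and 18.9 in the sham and 22.9, 18.6 and 16.3 in the axotomy libraries of females and 20.3 and 17.3 in the sham and 29.8, 23.0 and 25.9 in the axotomy libraries of males. Male axotomy lay above male sham and above female axotomy. It rose in males (0.48 ± 0.16, SE, padj = 0.0431) and gave -0.16 (padj = 0.556) in females. Kif9 fell in males (-0.56, padj = 0.0234), and Kif7, which acts in Hedgehog signalling at the cilium, Kif24, Kif27 and Kif6 were DEGs in neither sex. Kif7 gave -0.28 (padj = 0.291) in females and -0.12 (padj = 0.619) in males, and Kif24 gave -0.46 (padj = 0.258) in females and -0.42 (padj = 0.222) in males. Dync2h1 lost its call in males without male sham 1 (padj 0.166). Dync2h1 gained a call in females without male axotomy 2 or with only the compared libraries (padj 0.0456 to 0.0523). Kif19a lost its call in males without male sham 2 or male axotomy 1 or with scaling to the deposited TPM total (padj 0.131 to 0.284). Kif9 lost its call in males without either male sham library (padj 0.107 to 0.113).

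Kinesins that regulate microtubule growth held the members with the largest falls shared by both sexes. Kif26b, an atypical kinesin without motor activity, measured 8.97 and 9.19 in the sham and 3.87, 4.59 and 5.50 in the axotomy libraries of females and 10.3 and 10.1 in the sham and 2.83, 5.199 and 3.94 in the axotomy libraries of males. It was lower in every axotomy library, and its log2FC was -0.96 ± 0.21 (SE, padj = 0.0160) in females, against -1.35 ± 0.21 (SE, padj = 0.00167) in males. Kif26a, its relative, measured 1.68 and 1.44 in the sham and 0.579, 0.837 and 0.891 in the axotomy libraries of females and 1.38 and 1.62 in the sham and 0.757, 0.803 and 0.716 in the axotomy libraries of males. Its log2FC was -1.02 ± 0.18 (SE, padj = 0.00637) in females, against -0.98 ± 0.18 (SE, padj = 0.00298) in males. Kif21b, a neuronal kinesin that restrains microtubule growth, measured 3.01 and 4.03 in the sham and 1.65, 2.43 and 2.11 in the axotomy libraries of females and 4.00 and 4.34 in the sham and 1.48, 2.52 and 1.89 in the axotomy libraries of males. Its log2FC was -0.77 ± 0.21 (SE, padj = 0.0422) in females, against -1.08 ± 0.21 (SE, padj = 0.00445) in males. With protein-coding transcripts alone it was -0.89 (padj = 0.290) and 0.19 (padj = 0.804), and in both sexes most of its TPM came from a transcript annotated for nonsense-mediated decay. Kif26b lost its call in females without female sham 2 (padj 0.120). Kif21b lost its call in females without female sham 2 or female axotomy 1 or with no filter on low counts or protein-coding transcripts alone (padj 0.130 to 0.326).

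The abundant Kif21a measured 322 and 332 in the sham and 353, 349.7 and 343 in the axotomy libraries of females and 327 and 338 in the sham and 305, 338 and 282 in the axotomy libraries of males. These values overlapped in males, and the log2FC was 0.091 (padj = 0.519) in females and -0.11 (padj = 0.347) in males. Kif21a gained a call in males without male axotomy 2 or with scaling to the deposited TPM total (padj 0.0499 to 0.0905). Kif2a, which takes subunits off microtubule ends, gave 0.085 (padj = 0.505) in females and -0.10 (padj = 0.365) in males.

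Of 11 mitotic kinesins tested, 3 rose and 2 fell in females, and 3 rose and 2 fell in males. Of all genes tested, 10.4% rose and 9.74% fell in females, and 21.8% rose and 20.1% fell in males. The mitotic kinesin Kif22, which moves chromosomes along the spindle, measured 12.8 and 12.5 in the sham and 80.3, 47.3 and 41.0 in the axotomy libraries of females. In males it measured 10.01 and 12.8 in the sham and 58.9, 47.0 and 45.9 in the axotomy libraries. Its axotomy libraries lay above sham without overlap. Its log2FC was 2.15 ± 0.27 (SE, padj = 0.00150) in females, against 2.15 ± 0.27 (SE, padj = 8.48e-04) in males. Most of its TPM came from 2 short transcripts. Estimated counts of the longest coding transcript, Kif22-201, were 265 and 219 in sham and 719, 520.2 and 473 after axotomy in females and 234 and 214 in sham and 733, 726 and 488 after axotomy in males, higher after axotomy in both. Kif22 had the largest log2FC of the upregulated members with the correction for transcript length, and without it the log2FC was 1.68 (padj = 0.00142) in females and 1.67 (padj = 6.49e-04) in males, below the 1.86 (padj = 2.43e-04) of Tubb6 in females. All 12 mitotic kinesins together measured 25.4 and 21.6 in the sham and 87.8, 56.1 and 49.8 in the axotomy libraries of females and 19.7 and 24.1 in the sham and 67.3, 54.7 and 54.7 in the axotomy libraries of males, most of it from Kif22.

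Other mitotic kinesins moved in different directions. Kif4, which organizes mitotic chromosomes, rose in both sexes (0.73, padj = 0.0936 and 0.77, padj = 0.0478) from a level of 0.150 to 0.197 in sham. Kif11, the motor that separates spindle poles, fell in both (-0.48, padj = 0.0639 and -0.39, padj = 0.0726), Kif23, which acts at the central spindle, fell in females (-0.90, padj = 0.0958) and gave -0.72 (padj = 0.116) in males, and Kif18b rose in males (1.34, padj = 0.0492) on 5 to 17 counts a library. Kif2c, which depolymerizes microtubules at kinetochores, measured 0.319 and 0.226 in the sham and 0.534, 0.498 and 0.489 in the axotomy libraries of females and 0.598 and 0.941 in the sham and 0.365, 0.413 and 0.491 in the axotomy libraries of males, so axotomy lay above sham in females and below it in males. Its log2FC was 0.89 ± 0.27 (SE, padj = 0.0569) in females, against -0.84 ± 0.27 (SE, padj = 0.0355) in males, with an interaction of -1.73 ± 0.39 (SE, padj = 0.197). Without the correction for transcript length the male value was 0.20 (padj = 0.549), on 25 to 65 counts a library. Kif4 lost its call in females without either female sham library, either male sham library or female axotomy 1 or 2 or with DESeq2, no filter on low counts, only the compared libraries, scaling to the deposited TPM total or protein-coding transcripts alone (padj 0.106 to 0.401). Kif4 lost its call in males without either male sham library or male axotomy 1 or with scaling to the deposited TPM total or protein-coding transcripts alone (padj 0.104 to 0.229). Kif11 lost its call in females without either female sham library, either male sham library or any female axotomy library or with no filter on low counts (padj 0.101 to 0.367). Kif11 lost its call in males without either male sham library or male axotomy 1 or 2 or with no filter on low counts or only the compared libraries (padj 0.130 to 0.283). Kif23 lost its call in females without female axotomy 1 or 3 or male axotomy 3 (padj 0.116 to 0.246). It also lost that call with no filter on low counts, only the compared libraries or the replicate number as a block (padj 0.127 to 0.244). In fits without a single sham library, which leave 1 library in that group, its female log2FC ran from -1.25 to -0.44. Kif23 gained a call in males without female axotomy 1 or 2 or male axotomy 1 or with DESeq2, no length correction, only the compared libraries, scaling to the deposited TPM total or protein-coding transcripts alone (padj 0.0305 to 0.0922). Kif18b lost its call in males with DESeq2, no filter on low counts or the replicate number as a block (padj 0.112 to 0.174). Without male sham 1 or 2, which leaves 1 library in that group, its male log2FC was 1.25 and 1.42. Kif2c lost its call in females without either female sham library or female axotomy 1 or 2 (padj 0.113 to 0.360). Kif2c lost its call in males without male sham 2 (padj 0.297). Kif14, Kif15, Kif18a, Kif20a and Kif20b were DEGs in neither sex, with log2FC from -0.38 for Kif20b to 0.81 for Kif14 in females and from -0.28 for Kif18a to 0.50 for Kif20a in males. Of 12 proliferation genes, 2 rose in females and 4 in males and 0 fell, with 72.3 to 75.5 and 68.1 to 72.0 summed in sham and 84.7 to 99.6 and 91.9 to 113 after axotomy. Pcna, which also serves DNA repair, carried 80.3% to 84.0% of that sum in every library, while Mki67, Plk1, Bub1 and Aurkb each stayed under 1. Whether dividing cells contribute to these changes was not tested.

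Kif19b, a kinesin for which no role is assigned here, rose in both sexes. It measured 1.31 and 1.77 in the sham and 4.92, 4.22 and 4.24 in the axotomy libraries of females and 1.64 and 1.44 in the sham and 4.56, 3.80 and 2.45 in the axotomy libraries of males. The groups did not overlap, although male axotomy 3 was the lowest of the axotomy libraries. Its log2FC was 1.54 ± 0.24 (SE, padj = 0.00350) in females, against 1.23 ± 0.24 (SE, padj = 0.00383) in males.

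Genes that bind, fold or modify tubulin were read from lists beside the members. Of 31 microtubule-associated proteins and stathmins, 5 rose and 9 fell in females, and 4 rose and 19 fell in males. Stmn4, a neuronal stathmin that binds free tubulin, rose most (1.78, padj = 0.00116 and 1.70, padj = 7.31e-04), and Map7d1, a kinesin-1 activator, also rose (0.70, padj = 0.00884 and 0.53, padj = 0.0120). Map1a and Map1b, which stabilize axonal microtubules, fell in both sexes, Map1a with -0.60 (padj = 0.0918) in females and -1.11 (padj = 0.00394) in males and Map1b with -0.53 (padj = 0.0942) in females and -0.99 (padj = 0.00409) in males. Of 21 genes for folding tubulin, 6 rose and 1 fell in females, and 13 rose and 2 fell in males. They included Cct6a, a subunit of the ring chaperonin that folds tubulin (0.42, padj = 0.0333 in females and 0.59, padj = 0.00336 in males), and Pfdn4, a subunit of prefoldin (0.46, padj = 0.0399 in females and 0.72, padj = 0.00277 in males). Of 31 enzymes that modify or sever tubulin, 2 rose and 5 fell in females, and 3 rose and 10 fell in males. Vash2, which removes the terminal tyrosine of alpha tubulin, rose in both (1.42, padj = 0.00272 and 1.23, padj = 0.00217). Among 7 tested tubulins and C-terminal kinesins outside the naming rule, Kifc2 fell in both (-0.45, padj = 0.0280 and -0.64, padj = 0.00260).

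Female and male members were compared within each operation. In sham, 0 of 64 members differed with edgeR, where 0.0288% of all genes were more abundant in males and 0.0144% in females. DESeq2 also gave 0 members. With edgeR 2 members passed an unadjusted p under 0.05, for which no share of all genes was computed. After axotomy, 1 member was higher in males, where 1.16% of all genes were, and 1 was higher in females, where 0.355% were. Without male axotomy 2 the count was 23, of which 20 were higher in females and 3 in males, where 8.46% of all genes were higher in females and 8.81% in males. The count was 0 on leaving out either male sham library, any female axotomy library or male axotomy 3.

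Tubb1, the beta tubulin of platelets and their precursors, was higher in males after axotomy. It measured 0.311 and 0.708 in the sham and 0.183, 0.143 and 0.128 in the axotomy libraries of females and 0.266 and 0.339 in the sham and 0.484, 0.433 and 0.581 in the axotomy libraries of males. All 3 male axotomy libraries exceeded all female axotomy libraries, on 7 to 39 counts a library. The male minus female log2FC after axotomy was 1.70 ± 0.37 (SE, padj = 0.0850). Tubb1 fell in females (-1.73 ± 0.40, SE, padj = 0.0209) and gave 0.72 ± 0.38 (SE, padj = 0.175) in males, with an interaction of 2.45 ± 0.56 (SE, padj = 0.199). Tubb1 lost its call in females without female sham 2 (padj 0.268). The sex difference lost its call on leaving out either male sham library, any female axotomy library, male axotomy 1 or male axotomy 3 (padj 0.139 to 0.259), with only the compared libraries (padj 0.146) and with scaling to the deposited TPM total (padj 0.109), and DESeq2 gave it no adjusted p. Of 4 platelet markers, 3 rose in males and 0 in females after axotomy with edgeR, and 0 differed between the sexes after axotomy. Their summed level was 20.7 in both female sham libraries, 25.4 to 28.4 in female axotomy, 15.3 to 15.4 in male sham and 27.6 to 58.0 in male axotomy, with none at 0 in all libraries. The axotomy ranges of the sexes overlapped, and in females the sum was higher after axotomy while Tubb1 was lower. Their part in the Tubb1 values was not tested.

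Kif16b, which carries early endosomes, was higher in females after axotomy. It measured 19.5 and 19.4 in the sham and 18.6, 17.5 and 17.8 in the axotomy libraries of females and 18.5 and 19.2 in the sham and 15.2, 13.4 and 14.6 in the axotomy libraries of males. All male axotomy libraries lay below all other libraries. The male minus female log2FC after axotomy was -0.32 ± 0.062 (SE, padj = 0.0652). Kif16b fell in males (-0.39 ± 0.069, SE, padj = 0.00253) and gave -0.11 ± 0.069 (SE, padj = 0.310) in females, and the interaction was -0.28 ± 0.10 (SE, padj = 0.339). Kif16b gained a call in females with scaling to the deposited TPM total (padj 0.0673). The sex difference lost its call on leaving out any single library other than male axotomy 1 or 2, with padj of 0.114 to 0.194, and also with no length correction, only the compared libraries or protein-coding transcripts alone (padj 0.151 to 0.204).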

How the data were processed

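Bulk RNA of lumbar DRG was sequenced from stranded poly-A libraries. Per the labels and the study's methods, the authors trimmed reads with Trimmomatic 0.39 and deposited Salmon 1.3.0 estimated counts and TPM per transcript (Gencode M27, with sequence and GC bias correction). Genes are the sums of their transcripts. The estimated counts were rounded, genes of low count were removed (filterByExpr, minimum count 10), and TMM factors and the mean effective transcript length entered as offset. An edgeR 4.0.16 quasi-likelihood test (R 4.3.3) was fitted once to all 10 libraries with 4 group means, and p-values were adjusted by Benjamini-Hochberg over all 20836 genes tested. The SE is the log2FC divided by the root of F. Levels are the deposited TPM multiplied by a TMM-based factor per library. The fit was tested on simulated data. Depth ran from 55258476 to 90111671 estimated counts, and the common biological coefficient of variation was 0.129. The study tested with DESeq2, which was run here as an alternative (DESeq2 1.42.0), beside other scaling, no filter, no length offset, fewer libraries and a replicate block. Members, roles and lists were chosen with earlier results of these data known. Values per library are given for the most abundant member of each role, the 12 DEGs of largest log2FC at a mean of at least 1 TPM whose groups do not overlap, and members that differed between sexes. For the 12, lack of overlap in a sex where they were called was a condition of the choice and not a result. Other genes were named for their role, and of a list, up to 3 DEGs of largest log2FC. Promoters came from RefSeq GRCm38.p6, whose coordinates are not those of the GRCm39 annotation of the counts, and shared windows from Gencode M21 transcripts.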

Additional observations from a re-analysis of the deposited data

How the results depend on the processing

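Counts of members that passed depended most on which libraries were in the fit. Leaving out single libraries moved the upregulated members from 5 to 10 in females and 5 to 11 in males, the downregulated from 1 to 20 and 14 to 33, those with an interaction from 0 to 15, and those that differed between sexes after axotomy from 0 to 23. At the highest counts of rises, without male axotomy 3, 13% of all genes rose in females and 20.4% in males. Without male axotomy 2, which gave the other highest counts, 13.3% of all genes fell in females and 22.8% in males. In that fit 10.5% had an interaction and 17.3% differed between sexes after axotomy. Without female axotomy 2, where 0 members passed either test, those shares were 0.00961% and 0.125%. In sham the sexes differed for 0 members under every setting that was run. With only the compared libraries in a fit, 19 members fell in females (13.3% of all genes) and 0 differed between sexes after axotomy (0.161%). An interaction was not available there. With protein-coding transcripts only, 15 fell in females (15.1% of all genes) and 1 differed between sexes after axotomy (2.01%). DESeq2 gave 2 interactions (2.57% of all genes) and 4 sex differences after axotomy (5.8%). No filter on low counts gave 2 interactions (0.533%). No length offset and scaling to the deposited TPM total gave 1 sex difference each (2.2% and 0.73% of all genes). The last scaling and the restriction to protein-coding transcripts were chosen after seeing the data. That scaling moved the median log2FC of all genes to -0.12 in females and -0.16 in males. Of 1623 values of single members under alternatives, 1420 kept the side of the threshold. Another 141 lost a call, 59 gained one, and 3 lost a call and changed sign. The 3 were the male log2FC of Tuba1c when summed with Tuba1a and Tuba1b (-0.0259), of Kif21b with protein-coding transcripts only (0.19) and of Kif2c with no length offset (0.20). The value for Tuba1c is that of the summed genes, of which Tuba1c is a small part, and not of Tuba1c by itself. Some lost calls are also values of such sums. Sign changes of members called in neither fit are among the 1420, as for Klc1 in females (0.014 in the main fit, -0.017 without female axotomy 1). The cause of the sign changes was not tested. Low counts limit Tubb1, Kif18b, Kif4, Kif2c (25 to 65 counts a library) and Klc3 (28 to 66). Tuba3a and Tuba3b had too few counts for a test of their sum.

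Libraries of the same number were not paired by their labels, and the residuals of 13 same-numbered pairs correlated at -0.0894 to 0.129. With the replicate number as a block, 10 members rose and 10 fell in females (11.9% and 12% of all genes). In males 9 rose and 26 fell (21.4% and 20.4% of all genes). In that fit 0 members had an interaction (0.413% of all genes) and 3 differed between sexes after axotomy (2.98%).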

Other observations

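Single transcripts of some members moved within their gene. The 2 short Kif22 transcripts Kif22-202 (518 bases, protein-coding) and Kif22-205 (295 bases, retained intron) held most of the Kif22 TPM. The share of Kif22-201 (2115 bases) was 21.8 and 20.2% in sham and 10.5, 14.4 and 13.4% after axotomy in females and 24.6 and 19.9% in sham and 13.2, 12.1 and 12.3% after axotomy in males, lower after axotomy in both sexes. Kif22-202 had estimated counts of 57.1 and 76.8 in sham and 417, 241 and 242 after axotomy in females and 50.0 and 65.4 in sham and 367, 358 and 236 after axotomy in males. A retained-intron transcript of the dynein heavy chain, Dync1h1-204 (427 bases), made up 1.64 and 1.74% in sham and 12.6, 9.04 and 1.47% after axotomy of Dync1h1 TPM in females and 0.950 and 2.07% in sham and 8.62, 8.02 and 12.8% after axotomy in males. Its share was higher in 5 of 6 axotomy libraries than in any sham library, on 21.2 to 202 estimated counts, and female axotomy 3 was at the sham level. Kif21b-204, annotated for nonsense-mediated decay, held 85.8 and 78.2% in sham and 88.1, 68.1 and 82.8% after axotomy of Kif21b TPM in females and 87.7 and 83.3% in sham and 60.5, 85.8 and 50.1% after axotomy in males, and the groups overlapped. Transcript shares were not tested.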
